A study of Saccharomyces cerevisiae with 40 samples.

Results

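The iron uptake and ferric reductase genes described here are 10 protein-coding genes of budding yeast. *FRE1* (YLR214W), *FRE2* (YKL220C), *FRE3* (YOR381W) and *FRE4* (YNR060W) encode ferric reductases. *FET3* (YMR058W) and *FTR1* (YER145C) encode the multicopper oxidase and the permease of the high-affinity iron transporter. *ARN1* (YHL040C) and *SIT1* (YEL065W) encode transporters of iron bound to siderophores, and *FIT2* (YOR382W) and *FIT3* (YOR383C) encode mannoproteins of the cell wall. The genes were selected on measured values of these data as well as by name, and which values were used is not recorded. Differences of these 10 genes between strains and times are therefore given as a description, and no p-value of a single gene among them is printed. Where a gene of the 10 is said to be called, past the cutoffs or under a p threshold, this only places it on the scale used for all genes. Because of the selection, it is not a test of these 10 genes. All 10 were found in each of the 4 count tables, of which those of steady-state and labeled RNA list 7127 genes and those of ribosome profiling list 6613.

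Yeast takes up iron by a pair of routes. In the reductive route, Fre1 and Fre2 at the plasma membrane reduce ferric iron, and the Fet3–Ftr1 complex oxidizes the ferrous iron again as it is carried into the cell. Fet3 needs copper to work, and Fre1 also reduces copper before its uptake, which ties iron uptake to the supply of copper. In the other route, iron arrives bound to siderophores made by other microbes, is held in the cell wall by the Fit proteins and enters through transporters such as Arn1 and Sit1, or is freed from the siderophore by reductases such as Fre3 and Fre4. Low iron switches these genes on through the transcription factors Aft1 and Aft2, and low copper acts on *FRE1* through Mac1.

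The study compared a wild-type strain of the W303 background (WT) with the same strain lacking *DEF1* (*def1Δ*, replaced by a KanMX cassette), a gene whose product acts on RNA polymerase II. Another strain, lacking *DHH1* (*dhh1Δ*), which encodes an mRNA decay factor of the DEAD-box family, was used for ribosome profiling alone, and its construction is not given in the sources used here. All cultures grew to log phase in YPD, a rich glucose medium. Steady-state total RNA came from untreated cells, with 2 libraries of WT and 2 of *def1Δ*. RNA labeled with 4-thiouracil, a base that newly made RNA takes up and that allows the labeled molecules to be captured, came from both strains after 6, 9, 24 and 90 min, with 2 libraries of each strain and time. At 12 min only replicate 2 of each strain is in the count table. Ribosome profiling, in cells treated with cycloheximide before freezing, gave input RNA (3 libraries of each strain) and ribosome-protected footprints. The 3 footprint columns of WT and the 3 of *def1Δ* carry separate barcodes, the labels do not say whether they came from separate cultures, and the 3 *dhh1Δ* columns belong to 1 labeled sample and were counted once, without a test. Each strain is 1 laboratory strain. The study calls its steady-state and labeled RNA replicates biological. For ribosome profiling the sources used here do not say whether replicates were separate cultures, so the errors there measure the spread between libraries, which may be technical.

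Total counts per library ran from 9954503 to 14243535 in steady-state RNA, from 6026474 to 16318100 in labeled RNA, from 14894073 to 45654269 in input RNA and from 1984692 to 8635312 in footprints. *DEF1* stood at 792 to 1210 CPM (counts scaled to a common library total) in the input libraries of the strains that carry it and at 4.73 to 7.42 CPM in those of *def1Δ*. *DHH1* stood at 64.7 to 85.6 CPM in the *dhh1Δ* input libraries against 218 to 311 CPM in the others, and at 24.9 to 28.5 against 192 to 251 CPM in footprints, so the *dhh1Δ* libraries are not at 0. Counts were scaled by TMM, which sets the typical gene to no change. With the authors' *S. pombe* spike-in factors in its place, the median log2 fold change of all genes in *def1Δ* over WT moved from 0.04 to -0.29 in steady-state RNA, from -0.02 to 0.28 in 6 min, from -0.04 to 0.20 in 9 min, from 0.02 to 1.05 in 24 min and from 0.01 to 1.22 in 90 min labeled RNA. Every level and fold change below is therefore relative to the typical gene of the same libraries unless spike-in scaling is named. In a culture, fewer cells that make an RNA and less RNA in each cell cannot be told apart. A lack of overlap between strains was common among all genes tested. *def1Δ* and WT libraries did not overlap for 77.6% of genes in steady-state RNA. In labeled RNA the share was 82.8% at 6 min, 80.5% at 9 min, 83.4% at 24 min and 86.9% at 90 min. In footprints it was 51.3%. In input RNA it was 48.6% for *def1Δ* against WT, 48.5% for *dhh1Δ* against WT and 47.5% between the mutants.

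The promoters of the 10 genes hold letters that match reported cores of sites of the iron and copper regulators. *FRE1* differed from the other 9 in lacking the longer iron core, although it held the shorter one. The letters TGCACCC, the extended core of reported Aft1 and Aft2 sites, were found on either strand in the 500 bases before the start codon of 9 genes, all but *FRE1*. The same letters are in 2.3% of the 6019 promoters of that length (140). The shorter core CACCC, which lies inside TGCACCC, was in all 10 and in 33.4% of all promoters. TTTGCTC, the core of reported Mac1 sites, was found 3 times before *FRE1* and 1 time before *FTR1*, against 8.6% of promoters with at least 1 match and 2 of 6019 with at least 3. *FIT2* held 4 matches to TGCACCC, *FIT3* and *FTR1* held 2 each, and the other 6 held 1. A match describes letters in the reference genome and not a bound site. The sequences are from RefSeq R64 (strain S288C, not W303), 5′ to 3′ on the strand of the gene, with 11 bases on each side and the match in capitals. Sites of 6 genes are shown, because *FRE1* and these 5 genes with TGCACCC differed most between strains in the RNA described below. For *FTR1* only 1 match is printed. Its other match to TGCACCC, 365 to 359 bases upstream, and its match to TTTGCTC, 81 to 75 bases upstream, lie on the other strand. A match on the other strand reads GGGTGCA.
FRE1, 286 to 280 bases upstream, chrXII:568270-568298 (+): tcgccgatattTTTGCTCacctttttttt
FRE1, 269 to 263 bases upstream, chrXII:568287-568315 (+): cacctttttttTTTGCTCatcgaaaattg
FRE1, 96 to 90 bases upstream, chrXII:568460-568488 (+): ttttgaagtcgTTTGCTCtcttccatgct
FET3, 251 to 245 bases upstream, chrXIII:388560-388588 (+): atcttcaaaagTGCACCCatttgcaggtg
FTR1, 175 to 169 bases upstream, chrV:461898-461926 (-): gcgtagatgaaTGCACCCgatttctaagt
SIT1, 188 to 182 bases upstream, chrV:27458-27486 (+): aacacatttgaGGGTGCAatctggttcgt
ARN1, 260 to 254 bases upstream, chrVIII:21214-21242 (-): atttatcaaaaTGCACCCataaaagcagg
FRE4, 437 to 431 bases upstream, chrXIV:739503-739531 (+): gtctaaaaattTGCACCCtatttaacata

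The 10 genes each have 1 coding exon and no annotated gene overlaps any of them. *FRE3*, *FIT2* and *FIT3* lie together on chromosome XV, with *FRE3* at 1055545 to 1057680 (+), *FIT2* at 1059531 to 1059992 (+) and *FIT3* at 1060441 to 1061055 (-). *FIT2* and *FIT3* are 448 bases apart with no gene between them. These 3 and *FRE2*, *FRE4*, *ARN1* and *SIT1* lie between 9.1 and 42.2 kb from a chromosome end, whereas *FET3*, *FTR1* and *FRE1* lie at 388.8, 115.1 and 507.6 kb. The coding sequences of *FRE2* and *FRE3* are identical at 77.0% of aligned bases and those of *ARN1* and *SIT1* at 62.0%. Nevertheless, 96.3% (*FIT3*), 99.7% (*FRE2* and *FRE3*) or 100% (the other 7) of their 28-base windows occur once in the genome, so few footprint-sized reads could be shared.

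Levels per kb of coding length spanned a wide range in WT. In steady-state RNA, *FET3* was at 192 ± 112.9 CPM per kb (SD, n = 2), *FIT2* at 120.7 ± 35.4, *FRE1* at 60.1 ± 13.2, *FIT3* at 50.0 ± 7.54 and *FTR1* at 50.0 ± 19.0. *ARN1* followed at 12.6 ± 2.35, *SIT1* at 5.06 ± 2.48, *FRE3* at 2.89 ± 0.811, *FRE2* at 2.35 ± 0.376 and *FRE4* at 2.26 ± 0.179. The replicate ranges of *FET3* and *FIT2* overlapped, as did those of *FRE1*, *FIT3* and *FTR1*, those of *SIT1* and *FRE3*, and those of *FRE3*, *FRE2* and *FRE4*, so the order within these sets is not resolved. In WT input RNA, a table normalized separately, *FET3* again had the highest mean, 660.3 ± 128.7 CPM per kb (SD, n = 3), followed by *FTR1* (423.3 ± 109.2) and *FRE1* (390.5 ± 95.0), each of which overlapped its neighbour in that order over replicates. *SIT1* (99.1 ± 23.7), *FIT3* (75.3 ± 7.43), *FIT2* (68.3 ± 41.6) and *ARN1* (54.4 ± 9.57) followed, and each overlapped the next. *FRE3* (11.9 ± 0.299) and *FRE2* (6.22 ± 0.443) were lowest and apart from each other. *FRE4*, lowest in steady-state RNA, was at 37.7 ± 23.3 CPM per kb in input RNA, with WT replicate 3 highest.

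**Figure D1:**
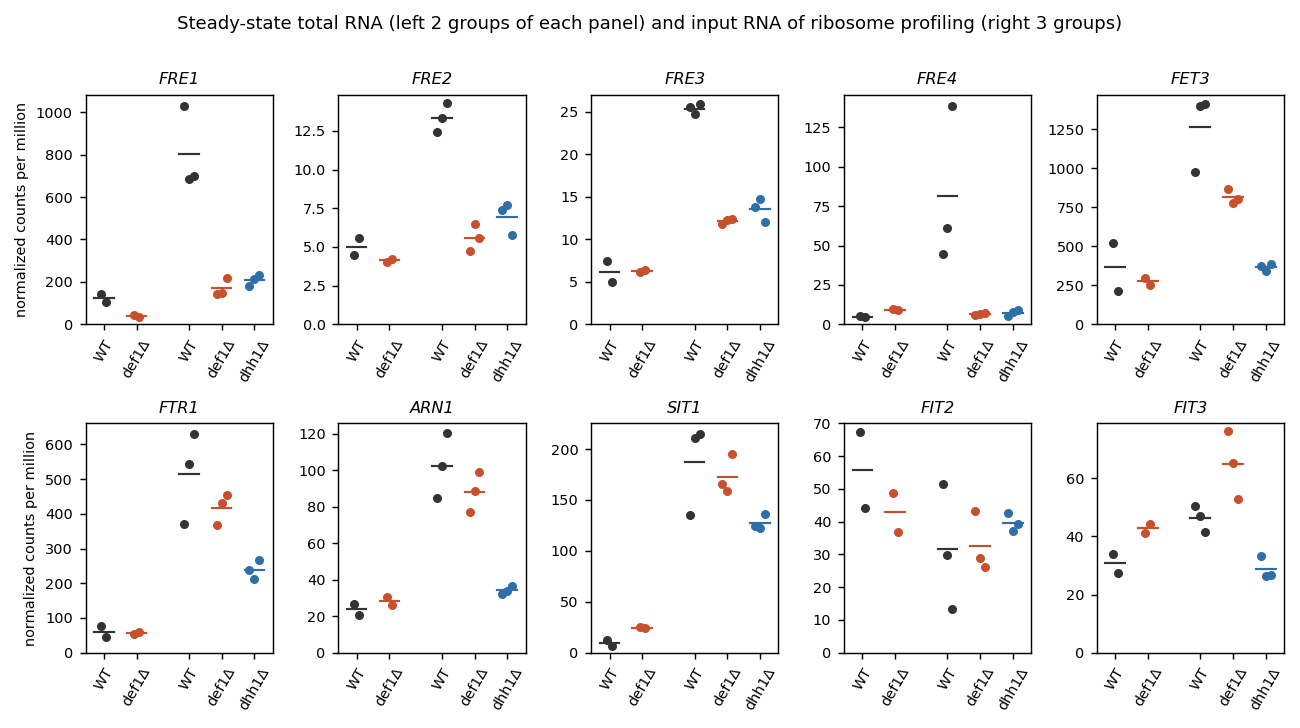
Level of each gene in every steady-state (WT and *def1Δ*) and input RNA (WT, *def1Δ*, *dhh1Δ*) library, in normalized CPM on a linear axis that starts at 0. Points are libraries and short lines are means; in input RNA the 3 WT libraries of *FRE1*, *FRE2*, *FRE3* and *FRE4* sit above all 6 mutant libraries, and in steady-state RNA *FRE1* and *SIT1* alone passed the cutoffs.

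*FRE1*, the main surface reductase for iron and copper, was lower in *def1Δ* in nearly every kind of RNA. In steady-state RNA it stood at 143.3 and 104.7 CPM in WT and at 44.2 and 33.3 CPM in *def1Δ*. The strains did not overlap, and the log2 fold change was -1.68 ± 0.20 (SE), past the cutoffs used for all genes (edgeR adjusted p under 0.01 and more than 2-fold). Without *def1Δ* replicate 2 it was -1.48 and missed them, and with spike-in factors it was -2.16 and missed them too. In input RNA *FRE1* was at 1031, 685.2 and 698.3 CPM in WT, at 141.6, 149.3 and 218.2 CPM in *def1Δ*, and at 182, 215.1 and 232.2 CPM in *dhh1Δ*. All 6 mutant libraries were thus below all 3 of WT, with log2 fold changes of -2.25 ± 0.23 in *def1Δ* and -1.95 ± 0.19 in *dhh1Δ*. Footprints gave 557.1, 390.7 and 365.8 CPM in WT against 85.1, 78.5 and 102.5 CPM in *def1Δ* (-2.30 ± 0.19), and 80.2 to 100 CPM in the 3 *dhh1Δ* columns.

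In labeled RNA *FRE1* moved with labeling time in WT and far less in *def1Δ*. WT libraries held 484.2 and 453.3 CPM at 6 min, 390.8 and 220.3 at 9 min, 235.1 at 12 min, 56.3 and 47.3 at 24 min, and 148.5 and 125.4 at 90 min. The *def1Δ* libraries held 107.9 and 106.4 CPM at 6 min, 95.1 and 93.0 at 9 min, 66.4 at 12 min, 45.0 and 48.5 at 24 min, and 52.4 and 56.6 at 90 min. The strains were apart at 6, 9 and 90 min and overlapped at 24 min. The log2 fold changes of *def1Δ* over WT were -2.02 ± 0.10 at 6 min, -1.59 ± 0.27 at 9 min, -0.08 ± 0.14 at 24 min and -1.37 ± 0.10 at 90 min, and with spike-in factors they were -1.74, -1.34, 0.92 and -0.16. At 9 min the call was lost without *def1Δ* replicate 1 (-1.61) or *def1Δ* replicate 2 (-1.57).

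*FRE2*, the other surface reductase, was a low RNA in every library. Its input RNA stood at 12.4, 13.3 and 14.3 CPM in WT, 4.73, 6.50 and 5.57 CPM in *def1Δ*, and 7.36, 7.72 and 5.80 CPM in *dhh1Δ*. Both mutants lay below WT without overlap, at -1.26 ± 0.19 in *def1Δ*, past the cutoffs, and -0.94 ± 0.18 in *dhh1Δ*, under 2-fold. In labeled RNA *FRE2* passed the cutoffs at 90 min alone, with 12.8 and 14.6 CPM in WT and 6.54 and 5.70 in *def1Δ* (-1.20 ± 0.25), a direction that turned to 0.01 with spike-in factors.

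*FRE3*, a reductase for siderophore-bound iron, had a pattern like that of *FRE2*. Input RNA was at 25.5, 24.7 and 25.9 CPM in WT against 11.8, 12.3 and 12.4 in *def1Δ* (-1.07 ± 0.14) and 13.8, 14.7 and 12.0 in *dhh1Δ* (-0.92 ± 0.14). Its labeled RNA overlapped between strains at 6, 9 and 24 min and was lower in *def1Δ* at 90 min, at 8.51 and 7.53 CPM against 25.1 and 17.7 in WT (-1.47 ± 0.21, or -0.25 with spike-in factors). In *def1Δ* it was 5.12 times as high at 6 min as at 90 min, and in WT 2.02 times, on the scale of mean CPM.

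*FRE4*, also linked to siderophore iron, had the lowest log2 fold changes of the 10 genes in input RNA and footprints. WT input libraries held 44.6, 60.8 and 138.7 CPM, *def1Δ* libraries 6.10, 6.53 and 7.21, and *dhh1Δ* libraries 5.35, 8.14 and 9.00. The mutants did not overlap WT, and the log2 fold changes were -3.62 ± 0.40 in *def1Δ* and -3.45 ± 0.43 in *dhh1Δ*. Footprints followed the RNA, at 27.6, 31.9 and 81.3 CPM in WT and 3.09, 1.86 and 3.88 in *def1Δ* (-4.03 ± 0.48). The spread among WT libraries was wide in both tables, yet no library left out ended the call. Steady-state RNA went the other way, with 5.16 and 4.62 CPM in WT and 9.66 and 8.94 in *def1Δ* (0.93 ± 0.19, under 2-fold, and 1.00 and past the cutoffs without WT replicate 1). In labeled RNA at 90 min it was at 32.3 and 26.7 CPM in WT and 6.61 and 7.79 in *def1Δ* (-2.08 ± 0.19, or -0.87 with spike-in factors).

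*FET3*, the copper-dependent oxidase, was the RNA with the highest mean level per kb in WT steady-state and input RNA. At 6 and 9 min its labeled RNA was higher in *def1Δ*, whereas that of *FRE1* was lower. WT libraries held 462.8 and 405 CPM at 6 min, 577 and 588.8 at 9 min, 549.1 at 12 min and 558.7 and 426.1 at 24 min, and then 2617 and 2322 at 90 min. The *def1Δ* libraries were already at 1256 and 1234 CPM at 6 min, 1665 and 1759 at 9 min, 1795 at 12 min, 2971 and 2508 at 24 min, and 1939 and 2101 at 90 min. *def1Δ* was above WT without overlap at 6, 9 and 24 min and below it at 90 min. The log2 fold changes were 1.63 ± 0.11, 1.66 ± 0.14 and 2.55 ± 0.16 at the first 3 times, past the cutoffs, and -0.33 ± 0.10 at 90 min, which became 0.87 with spike-in factors.

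Outside labeled RNA, *FET3* was not higher in *def1Δ*. Steady-state libraries stood at 519.5 and 214.4 CPM in WT and 298.7 and 252.9 in *def1Δ*, so the strains overlapped (-0.41 ± 0.35). Input RNA was at 977.9, 1398 and 1409 CPM in WT, 868.3, 779.1 and 805.2 in *def1Δ* (-0.64 ± 0.18, under 2-fold), and 375.9, 344.9 and 385.4 in *dhh1Δ* (-1.79 ± 0.18, past the cutoffs). The 3 strains did not overlap each other, and *def1Δ* exceeded *dhh1Δ* by 1.15 ± 0.09. Footprints were at 971.6, 1365 and 1644 CPM in WT and 627.7, 649.7 and 682.2 in *def1Δ* (-1.02 ± 0.18), a call that ended without the third WT column (-0.86) or the first *def1Δ* column (-0.99).

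*FTR1*, the permease that works with Fet3, had the same course. Labeled RNA in WT was at 126.5 and 112.4 CPM at 6 min, 142.6 and 212.6 at 9 min, 196.1 and 158.3 at 24 min, and 519.6 and 535.4 at 90 min. In *def1Δ* it was at 308.8 and 282.1, then 365.1 and 453.1, then 682.5 and 789.8, and then 342.6 and 339.3 CPM at 90 min. The strains did not overlap at any of these times, and their order turned at 90 min. The log2 fold changes were 1.41 ± 0.11, 1.31 ± 0.22, 2.12 ± 0.15 and -0.67 ± 0.10, the last 0.53 with spike-in factors, and the 9 min call was lost without *def1Δ* replicate 1 (1.46) or *def1Δ* replicate 2 (1.15). Steady-state RNA (-0.11 ± 0.23), input RNA (-0.31 ± 0.21) and footprints (-0.14 ± 0.14) of *def1Δ* overlapped WT. Input RNA of *dhh1Δ* was at 237.4, 213.3 and 266.2 CPM against 369.8, 542.5 and 630.7 in WT (-1.12 ± 0.20), a call kept in 1 of the 6 fits that left out a library.

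*SIT1*, a ferrioxamine transporter, had the highest log2 fold changes of the 10 genes in labeled RNA at 6, 9 and 24 min. WT libraries held 44.2 and 32.0 CPM at 6 min, 38.0 and 34.0 at 9 min, 29.0 and 20.8 at 24 min, and 150.3 and 105.2 at 90 min. The *def1Δ* libraries stayed between 141.7 and 186.8 CPM at those times and never overlapped WT. The log2 fold changes were 2.02 ± 0.14, 2.24 ± 0.16, 2.88 ± 0.16 and 0.47 ± 0.13. Steady-state RNA was at 12.9 and 6.24 CPM in WT and 24.8 and 24.4 in *def1Δ* (1.39 ± 0.28). That call was kept only without WT replicate 1, missing without WT replicate 2 (0.94), *def1Δ* replicate 1 (1.38) or *def1Δ* replicate 2 (1.40), and was 0.80 and not called with spike-in factors. In input RNA *SIT1* was at 135.4, 211.1 and 214.7 CPM in WT and 165.2, 158.4 and 194.8 in *def1Δ*, which overlapped, and at 124.7, 122.1 and 136.5 in *dhh1Δ* (-0.57 ± 0.18, under 2-fold).

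*ARN1*, a transporter of ferrichrome-type siderophores, differed most between the mutants. Input RNA stood at 84.6, 102.4 and 120.6 CPM in WT, 77.2, 88.4 and 99.2 in *def1Δ* (-0.22 ± 0.17), and 31.9, 33.8 and 36.8 in *dhh1Δ* (-1.60 ± 0.15). *dhh1Δ* lay below both other strains, which overlapped, and *def1Δ* exceeded it by 1.37 ± 0.12. Footprint columns of *dhh1Δ* were at 8.25 to 11.2 CPM, against 31.6 to 44.4 in WT and 27.5 to 30.8 in *def1Δ*. In labeled RNA *def1Δ* was above WT at 6, 9 and 24 min (0.64 ± 0.11, 0.74 ± 0.15 and 1.25 ± 0.14, the last past the cutoffs) and below it at 90 min (-0.29 ± 0.10, or 0.91 with spike-in factors).

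The cell wall genes *FIT2* and *FIT3* lie next to each other but differed in their patterns. *FIT2* built up slowly with labeling in both strains, from 21.5 and 22.3 CPM at 6 min to 136.8 and 130.6 at 90 min in WT, and from 13.9 and 15.9 to 148.8 and 194.1 in *def1Δ*. The 90 min mean was 6.11 times that at 6 min in WT and 11.5 times in *def1Δ*. At 24 min *def1Δ* was at 39.4 and 42.4 CPM against 77.8 and 94.5 in WT (-1.0 ± 0.14, and 0.06 with spike-in factors). This call was lost without WT replicate 2 (-0.86) or *def1Δ* replicate 1 (-0.99). Input RNA of *FIT2* overlapped among all 3 strains, and WT libraries ran from 13.3 to 51.6 CPM.

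*FIT3* was above WT in all 4 labeled comparisons of *def1Δ*, without overlap. At 6 min it was at 28.8 and 27.3 CPM in WT and 51.2 and 53.5 in *def1Δ* (1.01 ± 0.13), at 9 min the log2 fold change was 1.33 ± 0.19, at 24 min 0.95 ± 0.17 and at 90 min 0.79 ± 0.12. The 6 min call was lost without WT replicate 2 (0.95) or *def1Δ* replicate 2 (0.98) and the 9 min call without either *def1Δ* library (1.41 and 1.24), while the 24 min value was called without WT replicate 2 (1.03) or *def1Δ* replicate 2 (1.04). In input RNA the strains were ordered *def1Δ* (76.4, 65.3 and 52.9 CPM), WT (50.5, 47.0 and 41.4) and *dhh1Δ* (33.4, 26.5 and 26.6), with no overlap. *def1Δ* exceeded *dhh1Δ* by 1.17 ± 0.16 (1.10 and not called without *dhh1Δ* replicate 2), and neither mutant was 2-fold from WT (0.47 ± 0.16 and -0.70 ± 0.15).

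**Figure D2:**
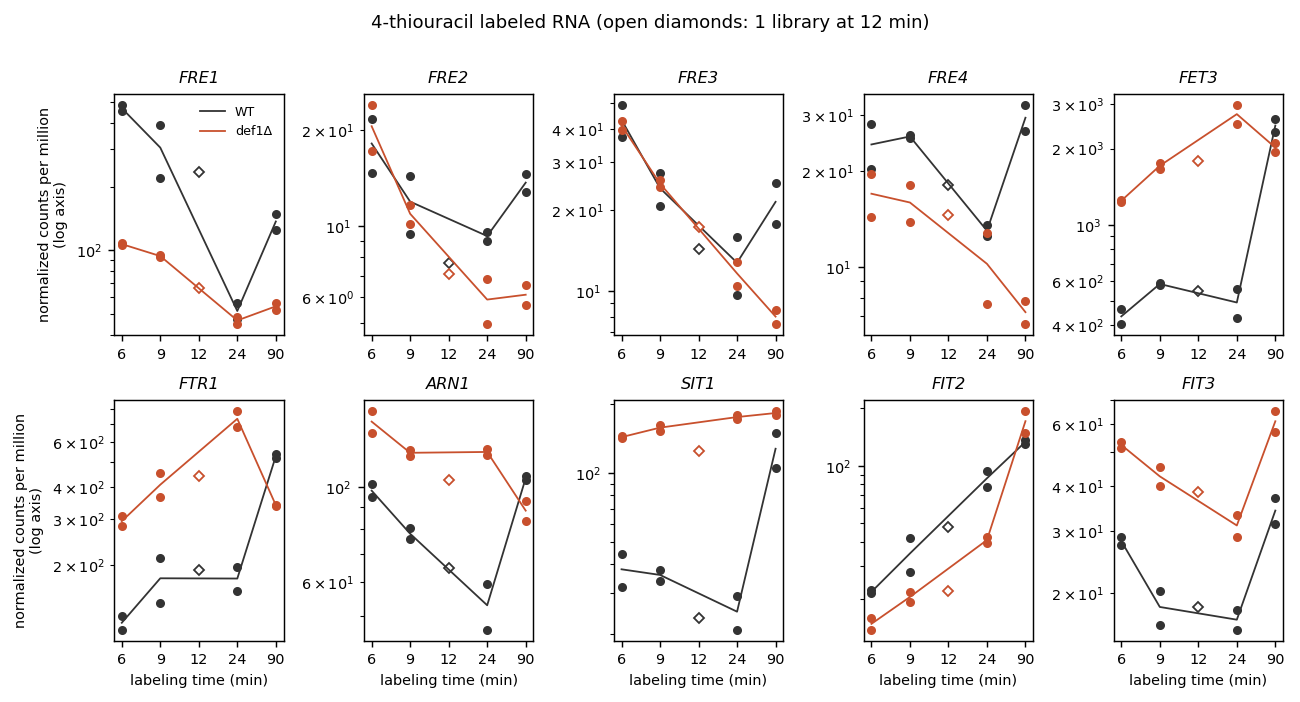
Labeled RNA of each gene at 5 labeling times, drawn at even spacing and not to scale, in WT (black) and *def1Δ* (orange), in normalized CPM on a log axis, with points for libraries, lines through the means of 2 and open diamonds for the single libraries at 12 min. *FET3*, *FTR1*, *ARN1* and *SIT1* are higher in *def1Δ* up to 24 min with TMM and spike-in scaling alike, and within 1 log2 unit of WT at 90 min with TMM, and *FRE1* is lower in *def1Δ* at 6, 9 and 90 min.

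Counted over the genes, the labeled comparisons changed sign with time. At 6 min 4 of the 10 were called higher in *def1Δ* (*FIT3*, *FET3*, *FTR1* and *SIT1*) and 1 lower (*FRE1*), against 12.2% higher and 10.1% lower of all genes tested. At 9 min the same 4 were higher and *FRE1* lower, against 12.8% and 10.0%. At 24 min 4 were higher (*FET3*, *FTR1*, *ARN1* and *SIT1*) and 1 lower (*FIT2*), against 15.4% and 13.8%. At 90 min none was higher and 4 were lower (*FRE1* to *FRE4*), against 16.1% and 14.7%. The median log2 fold change of the 10 genes was 0.46, 0.45, 0.44 and -0.50 at the 4 times, while that of all genes was within 0.04 of 0. With spike-in factors at 90 min, 3 of the 10 were higher (*FIT2*, *FIT3* and *SIT1*) and none lower, among 3374 higher and 110 lower of all genes, and 3 of the 10 lay above the median of all genes. Calls of all genes were then 96.8% higher, in place of 52.3% with TMM. The same share rose from 54.6% to 79.3% at 6 min, from 56.1% to 77.8% at 9 min and from 52.8% to 97.2% at 24 min, and in steady-state RNA it went from 47.4% to 7.69%.

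Within WT, the 6 min labeled RNA held less of *FIT2* (-2.74 ± 0.11), *FET3* (-2.64 ± 0.12), *FTR1* (-2.27 ± 0.12) and *SIT1* (-1.88 ± 0.18) than the 90 min RNA and more of *FRE1* (1.64 ± 0.12). These 4 lower and 1 higher of 10 stand beside 14.3% lower and 7.70% higher of all genes, and *FRE3* joined the higher ones without 1 library of 6 min (replicate 2, 1.04) or of 90 min (replicate 1, 1.12). Within *def1Δ*, 3 were higher at 6 min than at 90 min (*FRE3* 2.36 ± 0.14, *FRE2* 1.74 ± 0.20 and *FRE4* 1.26 ± 0.19) and *FIT2* was lower (-3.50 ± 0.13), against 18.5% higher and 22.5% lower of all genes. *FET3*, *FTR1* and *SIT1* differed by less than 2-fold between these times in *def1Δ*, at -0.69 ± 0.08, -0.20 ± 0.09 and -0.34 ± 0.09, and *FRE1* at 0.99 ± 0.09 lay just under the fold cutoff. With spike-in factors *FET3* (-1.41) and *SIT1* (-1.06) were called lower at 6 min in *def1Δ* as well, and *FRE4* (0.53) was not called.

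A fit of strain and time together, added after these values had been seen, gave the difference between the strain effects at 2 times. Between 24 and 90 min, 7 of the 10 genes were called with a more positive strain effect at 24 min and 1 (*FIT2*) with a more negative one, against 5.29% and 10.5% of all genes. The differences were 2.75 ± 0.19 for *FET3*, 2.67 ± 0.18 for *FTR1*, 2.28 ± 0.23 for *SIT1* and 1.42 ± 0.17 for *ARN1*. With spike-in factors, which shifted both times, *FET3* (2.64), *FTR1* (2.58) and *SIT1* (2.17) were still called and the other 5 were not. Between 6 and 90 min, 6 genes were called more positive at 6 min and none more negative, against 2.74% and 8.35%. With spike-in factors *FET3* (1.03) alone of these 6 was still called, and *FRE1* (-1.57) and *FIT2* (-1.65) were called more negative.

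In steady-state RNA 1 of the 10 was called higher in *def1Δ* (*SIT1*) and 1 lower (*FRE1*), against 8.72% and 9.68% of all genes, and their median log2 fold change was -0.03. With spike-in factors none of the 10 was called, among 1 gene higher and 12 lower in all, with 241 genes at an unadjusted p under 0.05. The paper, which also normalized to *S. pombe* reads, reports far more changed transcripts in steady-state RNA at the same cutoffs. The spike-in factors used here were 0.628 and 2.36 for the WT replicates, and 1.28 and 1.49 for those of *def1Δ*. Whether the spread between the WT factors accounts for the lost calls was not tested. In input RNA none was higher and 4 were lower in *def1Δ* (*FRE1* to *FRE4*), against 5.33% and 3.82%, with a median of -0.47. In *dhh1Δ* input RNA none was higher and 5 were lower (*FRE1*, *FRE4*, *FET3*, *FTR1* and *ARN1*), against 6.06% and 2.56%, with a median of -1.03. Both comparisons share the WT libraries. Set against each other, 3 of the 10 were higher in *def1Δ* than in *dhh1Δ* (*FET3*, *ARN1* and *FIT3*) and none lower, against 1.29% and 3.49%. The 4 reductase genes differed little between the mutants, at -0.30 ± 0.18, -0.32 ± 0.18, -0.14 ± 0.13 and -0.17 ± 0.21 for *FRE1* to *FRE4*.

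**Figure D3:**
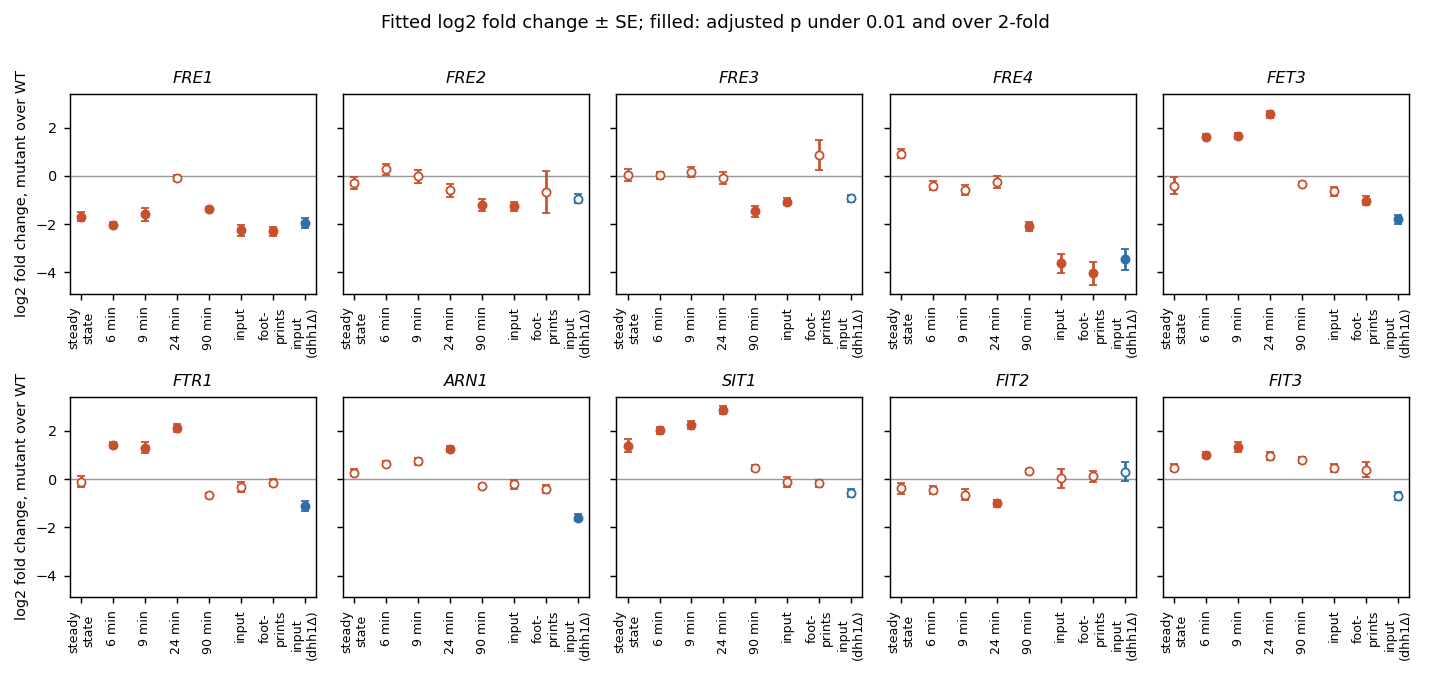
Fitted log2 fold change with its SE for each gene in 7 comparisons of *def1Δ* with WT (orange) and 1 of *dhh1Δ* with WT (blue), where filled points passed the cutoffs. *FRE4* reaches -4.03 in footprints, *SIT1* reaches 2.88 at 24 min, and *FET3*, *FTR1* and *ARN1* are lower in *dhh1Δ* than in *def1Δ* input RNA.

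Ribosome footprints gave values close to those of the RNA. In *def1Δ* footprints none of the 10 was called higher and 3 were lower (*FRE1*, *FRE4* and *FET3*), against 6.46% and 4.09% of all genes. In the edgeR fit of footprints relative to input RNA none was called in either direction, with 1 of the 10 at an unadjusted p under 0.05, against 0.140% (9 genes) and 0.0156% (1 gene). DESeq2 called 1, *FRE3*, at 1.97 on the log2 scale (1.85 ± 0.51 by edgeR), which rests on few footprints. Its footprint CPM was 2.00, 1.05 and 1.23 in WT and 1.82, 1.24 and 4.74 in *def1Δ*, so the strains overlapped. The other 9 lay between -0.48 (*FRE4*) and 0.57 (*FRE2*) by edgeR.

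The ratio of footprints to input RNA in WT differed widely among the genes. *FRE3* was at -4.06 and *FRE2* at -2.76 on the log2 scale, at percentiles 3.0 and 8.2 of the 5287 genes compared, whose median was -0.94. *FIT2* (0.30, percentile 85.1) and *FET3* (0.07, percentile 80.3) had the highest ratios, and the other 6 lay between -1.41 and -0.44. *FRE2* and *FRE3* were also the lowest of the 10 in *def1Δ* (-2.21 and -2.19) and in *dhh1Δ* (-2.03 and -2.83). *FRE2* footprints were few, from 0.394 to 4.00 CPM in WT, and 1 of the *dhh1Δ* columns held 0. The ratios compare 2 tables normalized separately and do not allow for the parts of an RNA outside the coding sequence.

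**Figure D4:**
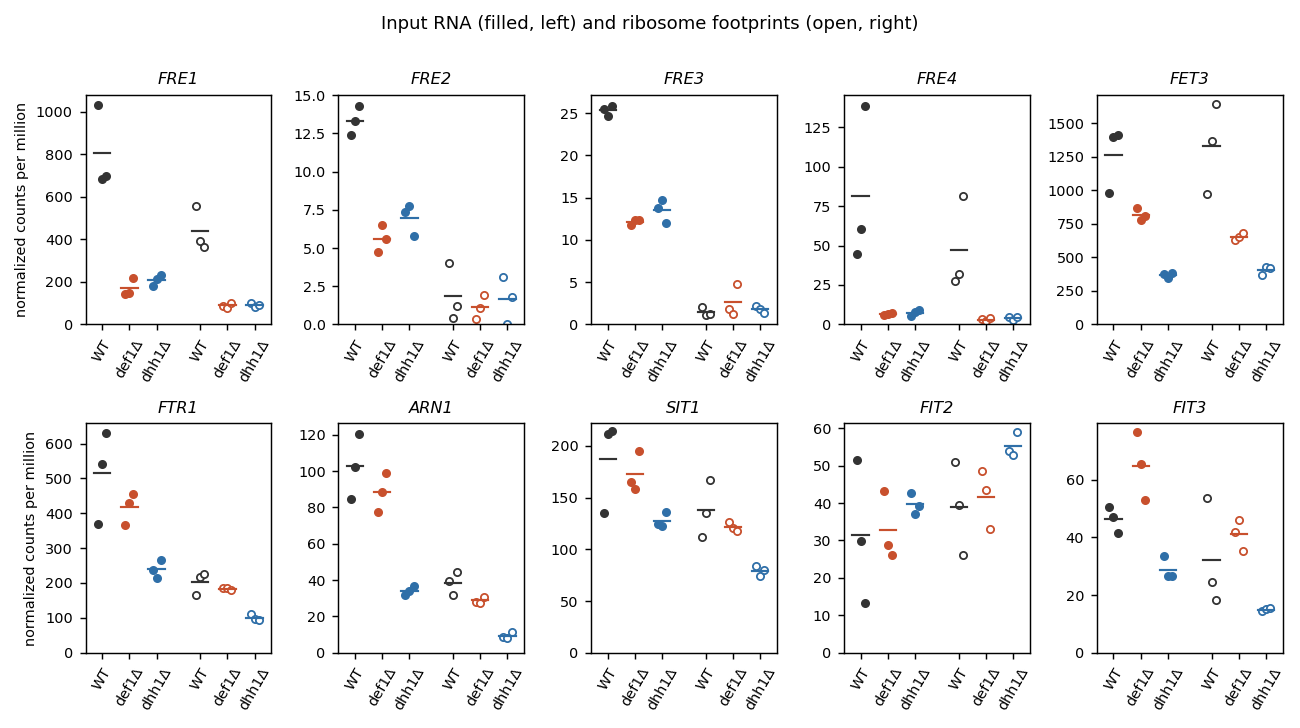
Input RNA (filled) and ribosome footprints (open) of each gene in WT, *def1Δ* and *dhh1Δ*, in normalized CPM on linear axes that start at 0, with short lines at the means. *FRE2* and *FRE3* have few footprints for their RNA in all strains, and *FRE1* and *FRE4* are low in both mutants in both kinds of library.

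Other genes of iron and copper handling were read from 5 lists of 50 genes in all, and their p-values come from edgeR's quasi-likelihood F test, Benjamini-Hochberg adjusted over every gene tested. The lists were chosen with results of these data known. Of 6 other surface uptake genes, *ENB1*, an enterobactin transporter, and *FRE5*, a putative reductase, were lower in the input RNA of both mutants. *ENB1* fell by 1.08 ± 0.14 in *def1Δ* (adjusted p = 0.00063) and by 1.49 ± 0.14 in *dhh1Δ* (adjusted p = 1e-04), and *FRE5* fell by 1.53 ± 0.22 (adjusted p = 0.001) and 2.28 ± 0.29 (adjusted p = 0.00062). The *ENB1* call in *def1Δ* was lost without WT replicate 3 (-0.96). *ARN2*, a further siderophore transporter, fell in *dhh1Δ* (-1.16 ± 0.22, adjusted p = 0.0043) and was at -0.49 ± 0.22 in *def1Δ* (adjusted p = 0.11). The *dhh1Δ* call was kept without WT replicate 1 and lost in the other 5 fits that left out a library, with values from -0.91 (without WT replicate 3) to -1.20 (without *dhh1Δ* replicate 2). The difference between the mutants was 0.67 ± 0.11, under 2-fold (adjusted p = 0.0033). *ENB1* also fell in *def1Δ* footprints (-1.45 ± 0.16, adjusted p = 8.6e-05). In *def1Δ* input RNA none of the 6 was called higher and 2 were lower, against 5.33% and 3.82% of all genes, with a list median of -0.49. In *dhh1Δ* input RNA none was higher and 3 were lower, against 6.06% and 2.56%, with a list median of -0.92. In steady-state RNA 1 of the 6 was called higher in *def1Δ* and none lower, against 8.72% and 9.68% of all genes. It was the reductase *FRE6* (1.06 ± 0.12, adjusted p = 0.00035), which was not called without either *def1Δ* library (1.06 in both fits). In labeled RNA *FRE6* (1.01 ± 0.17, adjusted p = 0.0032) and the mannoprotein gene *FIT1* (1.11 ± 0.22, adjusted p = 0.005) were higher at 9 min and *FRE6* (1.23 ± 0.14, adjusted p = 1.1e-07) at 24 min. Of all genes, 12.8% were called higher at 9 min and 15.4% at 24 min. Both 9 min calls were lost without either *def1Δ* library (0.95 to 1.08 for *FRE6*, 1.03 to 1.19 for *FIT1*), that of *FRE6* also without WT replicate 2 (0.84) and that of *FIT1* without WT replicate 1 (0.98). The list's median was 0.59 at 6 min, 0.54 at 9 min, 0.18 at 24 min and -0.57 at 90 min. None was called by edgeR at 6 or 90 min, although 6 and 4 of them had an unadjusted p under 0.05 by edgeR, and DESeq2 called 0 at 6 min and 1 lower at 90 min. All 6 hold TGCACCC upstream.

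Some copper response genes were lower in *def1Δ*. Of all genes, 3.82% were called lower and 5.33% higher in *def1Δ* input RNA. In labeled RNA of *def1Δ*, 10.1% of all genes were called lower at 6 min, 10% at 9 min, 13.8% at 24 min and 14.7% at 90 min. Of 6 copper response genes tested in *def1Δ* input RNA, 3 fell and none rose, with a median of -1.0. These were *CTR1*, the high-affinity copper transporter (-1.44 ± 0.19, adjusted p = 0.00064), *CTR2*, its vacuolar counterpart (-1.46 ± 0.31, adjusted p = 0.0072), and *FRE7*, a copper-regulated reductase (-1.53 ± 0.35, adjusted p = 0.0097). The calls of *CTR2* and *FRE7* were each lost in 5 of the 6 fits that left out a library. *CTR2* was then between -1.18 (without WT replicate 3) and -1.57 (without *def1Δ* replicate 3) and called only without WT replicate 2, and *FRE7* was between -0.97 (without WT replicate 1) and -1.61 (without WT replicate 2 or *def1Δ* replicate 3) and called only without WT replicate 3. *CTR1* kept its call in all 6. *CTR1* fell in *dhh1Δ* input RNA too (-1.24 ± 0.17, adjusted p = 0.0011) and in *def1Δ* footprints (-1.53 ± 0.17, adjusted p = 0.00011). In labeled RNA at 6 min, 3 of 8 fell, namely *CTR1* (-1.50 ± 0.14, adjusted p = 2.4e-06), *CTR3* (-1.45 ± 0.31, adjusted p = 0.0013) and *CTR2* (-1.13 ± 0.14, adjusted p = 1.8e-05), all of which kept their sign without a call under spike-in factors (-1.24, -1.09 and -0.80). The *CTR3* call was also lost without WT replicate 2 (-1.25) or *def1Δ* replicate 2 (-1.24). At 9 min edgeR called 2 of 8 lower and none higher, while DESeq2 called 3 lower and 2 higher, and the 2 edgeR calls, *CTR1* and *CTR2*, were lost without either *def1Δ* library (-1.39 and -1.45, and -1.08 and -1.38), that of *CTR1* also without WT replicate 1 (-0.98). None of 8 passed in steady-state RNA by edgeR or DESeq2 (median -0.10), where 4 had an unadjusted p under 0.05 by edgeR. At 24 min none of 8 passed by either tool (median -0.39), where 6 had an unadjusted p under 0.05 by edgeR. At 90 min 4 of 8 fell, among them *FRE7* (-1.83 ± 0.44, adjusted p = 0.0021) and the metallothionein copies *CUP1-1* and *CUP1-2* (-1.85 ± 0.14, adjusted p = 1.1e-07), which share reads, so that their 2 calls are 1 measurement. The *FRE7* call was lost without *def1Δ* replicate 2 (-1.36). With spike-in factors none of these 4 was called at 90 min (*FRE7* -0.61, *CUP1* copies -0.65). *CTR1* holds 2 matches to TTTGCTC upstream, a number reached by 21 of 6019 promoters, and the other copper genes hold none.

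Genes that sense or spare iron moved in both directions in steady-state and labeled RNA. In *def1Δ* steady-state RNA 3 of the 10 were called higher and 2 lower, against 8.72% and 9.68% of all genes. The 2 lower were *GRX4* (-1.54) and *BOL2* (-1.29). The *BOL2* call was lost without WT replicate 1 (-0.96), *def1Δ* replicate 1 (-0.99) or *def1Δ* replicate 2 (-1.71). *TIS11*, which marks mRNAs of iron-using proteins for decay when iron is low, rose in *def1Δ* steady-state RNA (1.76 ± 0.31, adjusted p = 0.0022) and at all 4 labeling times (1.18, 1.83, 2.17 and 2.26 at 6, 9, 24 and 90 min). Its steady-state call was lost without *def1Δ* replicate 1 (1.94) or *def1Δ* replicate 2 (1.55), its 6 min call without WT replicate 2 (0.85), and its 9 min call without *def1Δ* replicate 1 (1.77) or *def1Δ* replicate 2 (1.88). *HMX1*, a heme oxygenase that recovers iron from heme, rose in steady-state RNA (2.14 ± 0.20, adjusted p = 0.00012) and at 90 min (1.26 ± 0.13, adjusted p = 2.4e-06). *AFT1* rose at 6, 9 and 24 min (1.45, 1.75 and 1.62) and *FRA1*, which takes part in sensing iron, by 1.31 in steady-state RNA and 1.30 to 1.53 in labeled RNA. *BOL2*, also called *FRA2*, its partner, fell at all 4 times (-1.97, -1.68, -1.72 and -1.41 in that order). *GRX4* was called lower at 6, 9 and 90 min (-1.06, -1.05 and -1.02). With spike-in factors *GRX4* was called at none of these times (-0.75, -0.82 and 0.19). Its 9 min call was also lost without WT replicate 2 (-0.97) or either *def1Δ* library (-1.01 and -1.1). Its 90 min call was lost without WT replicate 1 (-0.83) or *def1Δ* replicate 1 (-0.97). At 9 min the calls of *FRA1* and *BOL2* were lost without either *def1Δ* library (1.33 and 1.27, and -1.69 and -1.67) and that of *AFT1* without *def1Δ* replicate 1 (1.65). None of the 10 genes on this list passed in input RNA of either mutant or in footprints by edgeR or DESeq2, where the medians were -0.02 (*def1Δ*), -0.19 (*dhh1Δ*) and -0.58 (footprints). At an unadjusted p under 0.05 by edgeR there were 3, 4 and 7. With spike-in factors none of the steady-state calls of this or any other list was kept, while *BOL2* kept its sign at every time (-0.20 at 90 min).

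Of 15 iron-using and iron-sulfur assembly genes, 2 rose and 6 fell in *def1Δ* steady-state RNA, with a median of -0.72, where 8.72% of all genes were called higher and 9.68% lower. *ISU1*, the scaffold for iron-sulfur clusters, rose by 2.10 ± 0.14 (adjusted p = 3e-05) and *ACO1*, mitochondrial aconitase, by 1.77 ± 0.21 (adjusted p = 0.00037). *BIO2*, biotin synthase, fell by 1.93 ± 0.24 (adjusted p = 0.00042) and *LEU1*, a leucine pathway enzyme, by 1.56 ± 0.15 (adjusted p = 0.00015). Without *def1Δ* replicate 1 or *def1Δ* replicate 2 the calls of *ACO1* (1.69 and 1.87), *BIO2* (-1.78 and -2.11) and *LEU1* (-1.63 and -1.49) were lost. In *def1Δ* input RNA 2 rose, *ACO1* (1.27) and *ISU1* (1.04), and 2 fell, *BIO2* (-1.76) and *GLT1* (-1.43), glutamate synthase. Of all genes, 5.33% were called higher and 3.82% lower there. The *ISU1* call was lost without WT replicate 1 (0.99) or WT replicate 3 (0.98). In *dhh1Δ* input RNA *GLT1* fell by 1.51 and *BIO2* by 1.01, and none rose, against 2.56% lower and 6.06% higher of all genes. The *BIO2* call there was lost with the replicate block (-0.99) and without WT replicate 2 (-0.99), WT replicate 3 (-0.89) or *dhh1Δ* replicate 2 (-0.96). *BIO2* was also called lower in footprints (-2.11) and at all 4 labeling times, although its 9 min call was lost without *def1Δ* replicate 1 (-1.86). With spike-in factors its 24 min value went from -1.97 to -0.95 and was not called. Its 90 min value then turned from -1.20 to 0.01. The 10 other transport genes had no more than 3 calls in any comparison of *def1Δ* with WT. In *def1Δ* steady-state RNA 1 of these 10 was called higher and 2 lower. *CCC2*, which loads copper into Fet3, rose (1.13 ± 0.14, adjusted p = 0.00047), a call lost without *def1Δ* replicate 1 (1.2) or *def1Δ* replicate 2 (1.05). *FET5* (-1.05) and *CCC1* (-1.01) fell, and both calls were lost without either *def1Δ* library (-1.24 and -0.88, and -0.86 and -1.17). The *FET5* call was also lost without WT replicate 1 (-0.97) and that of *CCC1* without WT replicate 2 (-0.92). *ATX1*, the copper chaperone that serves Ccc2, fell in labeled RNA at 6 min (-1.50 ± 0.25, adjusted p = 0.00021) and in *dhh1Δ* input RNA (-1.13 ± 0.15, adjusted p = 0.00069). Its 6 min call was lost with spike-in factors (-1.18).

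**Figure D5:**
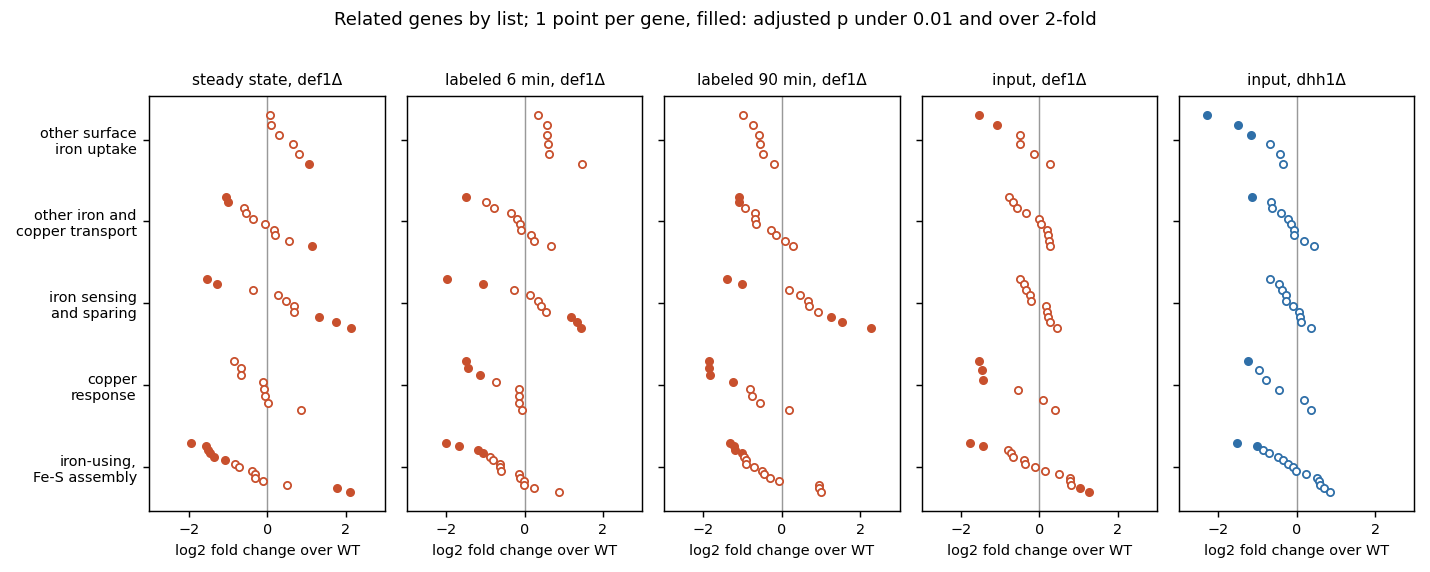
Log2 fold change over WT of each related gene, by list, in 4 comparisons of *def1Δ* (orange) and 1 of *dhh1Δ* (blue), with 1 point per gene and filled points past the cutoffs. The copper response genes have 3 filled points on the left in *def1Δ* input RNA, and the sensing and sparing genes have filled points on both sides in steady-state and labeled RNA and none in input RNA.

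Over the 4 steady-state and 9 input RNA libraries, the 10 genes did not share 1 profile. The correlation (Pearson r) of each gene with the mean standardized profile of the 10, in which it is itself included, ran from 0.934 for *FET3* and 0.859 for *FTR1* to 0.504 for *SIT1*, 0.470 for *FIT3* and -0.31 for *FIT2*. Among 5333 other genes the highest correlations with that mean were those of *RIM9* (0.974), a gene of pH sensing, *ECM10* (0.966), a mitochondrial chaperone, YHL050C (0.958), *ENB1* (0.954) and *FRE5* (0.944). The points are 13 libraries that share strains, tables and depth, so these values are a description. In input RNA *ECM10* was at -0.85 ± 0.13 in *def1Δ* and -1.09 ± 0.12 in *dhh1Δ*, and YHL050C, a gene near a chromosome end whose reads may be shared with similar copies elsewhere, was at -1.49 ± 0.18 and -3.20 ± 0.19.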

How the data were processed

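The authors deposited RSEM (1.2.28) expected counts per gene for steady-state and labeled RNA, from reads mapped to sacCer3 with STAR and the R64 annotation. For input RNA and footprints they deposited whole-number counts, whose aligner and counter the paper does not give. The sample records also name the tools HISAT2 and featureCounts, without versions. Libraries other than footprints used a stranded kit. Expected counts were rounded. The members and gene lists were chosen with earlier results of these data known. Genes reaching 15 counts in total in the libraries of a comparison were fitted with edgeR 4.0.16 (R 4.3.3; TMM, quasi-likelihood F test, Benjamini-Hochberg adjustment over all genes) and called at adjusted p under 0.01 and more than 2-fold. Simulated counts were used to test the fits. Footprints relative to input were tested as an interaction. Levels are TMM-scaled CPM over each table. Spike-in factors were the deposited counts over the authors' normalized reads in the parts of the supplementary tables at hand (1998 and 1542 genes), as an alternative, because the deposited tables list no *S. pombe* reads. Other alternatives were DESeq2 1.42.0, a minimum of 1 count, the replicate number as a block and each library left out. A table of footprint barcodes was not used. No 2 replicates agreed within sampling noise. Named genes were *DEF1*, *DHH1*, the 10 members, up to 4 called genes of largest change per list and comparison, and the 5 genes most like the members. Promoters were the 500 bases before the start codon, read with Python 3.11.15, and alignments used Biopython 1.88. Intervals and errors cover these libraries only.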

Additional observations from a re-analysis of the deposited data

Results flagged for a closer look

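The strain effect on labeled RNA, *def1Δ* over WT, passed the cutoffs for a difference between labeling times in most of the 10 genes with TMM scaling. At 24 against 90 min 7 were called more positive and 1 more negative. At 6 against 90 min 6 were called more positive and none more negative. The fits, of 24 against 90 min and 6 against 90 min, were edgeR interactions of strain and time with the same cutoffs. Of all genes, 5.29% were called more positive and 10.5% more negative at 24 than at 90 min. At 6 against 90 min the shares were 2.74% and 8.35%. Both fits were added after the values had been seen, and the genes were selected on measured values, so the differences are a description. Positive values mean a more positive strain effect at the shorter time. Between 24 and 90 min the log2 differences were 1.17 for *FRE1*, 1.27 for *FRE3*, 1.70 for *FRE4*, -1.44 for *FIT2*, 2.75 for *FET3*, 2.67 for *FTR1*, 1.42 for *ARN1* and 2.28 for *SIT1*. Between 6 and 90 min they were 1.33 for *FRE2*, 1.37 for *FRE3*, 1.55 for *FRE4*, 1.82 for *FET3*, 1.94 for *FTR1* and 1.41 for *SIT1*. *FIT3* was called at neither pair of times (0.04 and 0.08). With spike-in factors most of these calls were lost. Between 24 and 90 min *FET3* (2.64), *FTR1* (2.58) and *SIT1* (2.17) were kept, 3 of 8, and between 6 and 90 min *FET3* (1.03) alone was kept, 1 of 6, while *FRE1* (-1.57) and *FIT2* (-1.65) were called more negative. No group holds 4 or more samples, so single libraries were not screened within groups.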

How the results depend on the processing

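DESeq2 kept the direction and call of the 10 genes in 118 of 120 gene comparisons, a minimum of 1 count in 119 of 120, and spike-in factors in 56 of 70. The replicate numbers did not pair the samples in every comparison, as correlations of same-numbered deviations ran both ways, from -0.665 to 0.597. Between *def1Δ* and WT they were 0.383, 0.092 and 0.429 in input RNA and ran from -0.035 to 0.34 in steady-state and labeled RNA. Whether libraries of the same number shared a batch was not tested. The fit with the number as a replicate block changed no call of the 10 genes, 100 of 100. With the block 1130 genes were called in steady-state RNA, 663 in *def1Δ* input RNA and 562 in *dhh1Δ* input RNA, against 1114, 582 and 552 without it, and 116 of 117 calls of list genes were kept. With 3 pairs, not every library correlated best with its own number. No paired analysis was possible for footprints because their columns carry barcodes and not the labels' replicate numbers. With spike-in factors the count of the 10 genes called in steady-state RNA went from 2 to 0 and that of all genes from 1114 to 13, all genes at 90 min from 1863 to 3484, and all genes between 6 and 90 min in WT from 1337 to 750. The steady-state factors of the WT replicates were far apart, at 0.628 and 2.36. The paper reports far more steady-state calls with its own spike-in normalization, and the reason for the difference was not tested. Spike-in factors reversed *FIT2* at 24 min (0.06, from -1.0) and *FRE2* at 90 min (0.01, from -1.20). DESeq2 called 1 of the 10 and 68 genes in all for footprints relative to input, where edgeR called 0 and 10. Leaving out 1 library gave, for the 10 genes and for all genes, 0 to 3 and 307 to 1331 in steady-state RNA, 4 to 5 and 1122 to 1434 at 6 min, 2 to 5 and 114 to 2139 at 9 min, 4 to 6 and 1655 to 1931 at 24 min, 4 to 4 and 1801 to 1947 at 90 min, 4 to 4 and 401 to 627 in *def1Δ* input RNA, 4 to 5 and 460 to 626 in *dhh1Δ* input RNA, 2 to 3 and 210 to 315 between the mutants, 2 to 3 and 506 to 672 in footprints, 0 to 0 and 5 to 14 relative to input, 5 to 6 and 1220 to 1445 between times in WT, and 4 to 5 and 2374 to 2561 in *def1Δ*. The 9 min count was 114 without *def1Δ* replicate 1 and 395 without *def1Δ* replicate 2, and the steady-state count 398 and 307 without the same replicates. Where 2 libraries faced 2, the lone library was assumed to vary like the other strain's. Calls of list genes were lost in 104 of 538 leave-one-out fits, and spike-in factors ended 51 of 100 and reversed 5. Between 24 and 90 min, 7 to 8 of the 10 genes were called with any library left out, and between 6 and 90 min 5 to 7. Low depth limits *FRE2* and *FRE3* footprints.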
